A study of Mus musculus with 6 samples.

Results

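Potassium channel genes were followed in lymphatic endothelial cells (LECs) of the mouse dura mater, with and without delivery of the lymphatic growth factor VEGF-C. They are the 92 of 55401 genes in the deposited tables whose symbol is Kcn, lower-case letters and a closing number. The rule took in pore-forming subunits and their auxiliary subunits by name alone, with no measured value. The genes were then separated into 37 with at least 10 counts in each AAV-Control library and 55 below that in at least 1 of them.

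RNA was sequenced from LECs sorted as viable CD31+, Podoplanin+, Lyve-1+ cells, with CD45+ cells gated apart, from WT male C57BL/6J mice. Both groups had received serotype 9 AAV into the cisterna magna at 4 wk of age. The AAV-VEGF-C virus carried full-length mouse VEGF-C, and the AAV-Control virus carried domains 4 to 7 of mouse VEGFR3 fused to Ig, which do not bind VEGF-C. Each group had 3 libraries from separate experiments numbered 1 to 3, and each library held the cells of 10 to 12 pooled meninges. In tissue taken in bulk, fewer cells of a type and less RNA per cell cannot be told apart, and the same holds for cells that a sort lets through.

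Potassium channels let potassium ions leave the cell and so pull the membrane voltage to negative values. In endothelium this sets the driving force for calcium entry, and inward rectifiers, calcium-activated channels and two-pore background channels carry most of the resting current. Voltage-gated channels are best known for ending action potentials in neurons and muscle. Modifier subunits form no channel alone and change the properties of voltage-gated partners, while auxiliary subunits line no pore and alter gating or trafficking.

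By role, the 92 genes comprised 30 voltage-gated pore subunits, 10 modifier subunits, 8 calcium- or sodium-activated pore subunits, 15 inward rectifiers, 14 two-pore subunits and 15 auxiliary subunits. A pore subunit carries a selectivity filter, a short loop whose backbone replaces the water around a potassium ion. The translated coding sequence of 1 GENCODE transcript per gene was searched for a filter of threonine or serine, then valine, isoleucine or leucine, then glycine, then tyrosine, phenylalanine or leucine, then glycine. It was found once in all 30 voltage-gated, all 10 modifier, all 8 calcium- or sodium-activated and all 15 inward rectifier subunits. It was found 2 times in 12 of the 14 two-pore subunits, once in Kcnk1 and Kcnk7, and in 0 of the 15 auxiliary subunits. The filter codons of the main pore genes described below are shown with 6 bases on either side, 5′ to 3′ on the coding strand. They let a reader set members that were abundant in AAV-Control (Kcnk5, Kcnj2, Kcnma1) beside members that were nearly silent there (Kcnk10, Kcnj6). Capitals mark the 5 filter codons.
Kcnk5, residues 98 to 102: atcaccACCATCGGTTATGGCaatgtg
Kcnk5, residues 203 to 207: atctccACCATTGGCTTTGGGgacttt
Kcnj2, residues 142 to 146: cagacaACCATTGGCTATGGTttcagg
Kcnma1, residues 352 to 356: atgtctACAGTGGGTTATGGGgacgtt
Kcnk10, residues 164 to 168: atcacaACCATAGGGTATGGGaatatt
Kcnk10, residues 273 to 277: ctgaccACAGTAGGCTTTGGTgatttt
Kcnj6, residues 154 to 158: gaaaccACCATCGGTTATGGCtaccgg

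The libraries of the groups differed in depth. Total counts were 6530269, 7858091 and 12399498 in AAV-Control 1, 2 and 3, and 564475, 1435008 and 3261935 in AAV-VEGF-C 1, 2 and 3. Every AAV-VEGF-C library was the shallower, so depth and treatment cannot be told apart. Reads also fell on 1615 genes of silent families, such as olfactory receptors, which have no known role in endothelium. Their summed level was 134 to 258 CPM, which divides counts by the total of their library, in AAV-Control and 2686 to 6536 CPM in AAV-VEGF-C. Their mean in TPM, a level corrected for gene length, was 0.0267 to 0.0394 and 0.360 to 0.421. The 12 lymphatic markers were detected in all 6 libraries and summed to 636 to 781 TPM in AAV-Control and 231 to 433 TPM in AAV-VEGF-C, with 0 past the test. In CPM their sums overlapped, at 2391 to 3294 in AAV-Control and 1294 to 4689 in AAV-VEGF-C. In gene span, 17 of the 92 channel genes overlap another gene of their own strand and 38 overlap one of the other strand. The use of strand in counting is not given in the sources used here, so counts of overlapping genes are uncertain.

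The 2 classes of channel genes stood at different levels in AAV-Control, which the 10-count limit itself sets. The 37 genes of the 10-count class summed to 171, 137 and 195 TPM in AAV-Control 1, 2 and 3 and to 50.7, 56.7 and 107 TPM in AAV-VEGF-C 1, 2 and 3. In CPM, which does not correct for length, the same sums were 917, 636 and 835 against 663, 481 and 735. The summed levels of the groups did not overlap in TPM and overlapped in CPM. The 55 genes outside the class had a median of 0.054, 0.059 and 0.080 TPM in AAV-Control and 0.345, 0.563 and 0.981 TPM in AAV-VEGF-C. In CPM they summed to 39.1, 53.6 and 63.1 against 412, 322 and 379. Every AAV-VEGF-C library was above every AAV-Control library on both scales.

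**Figure D1:**
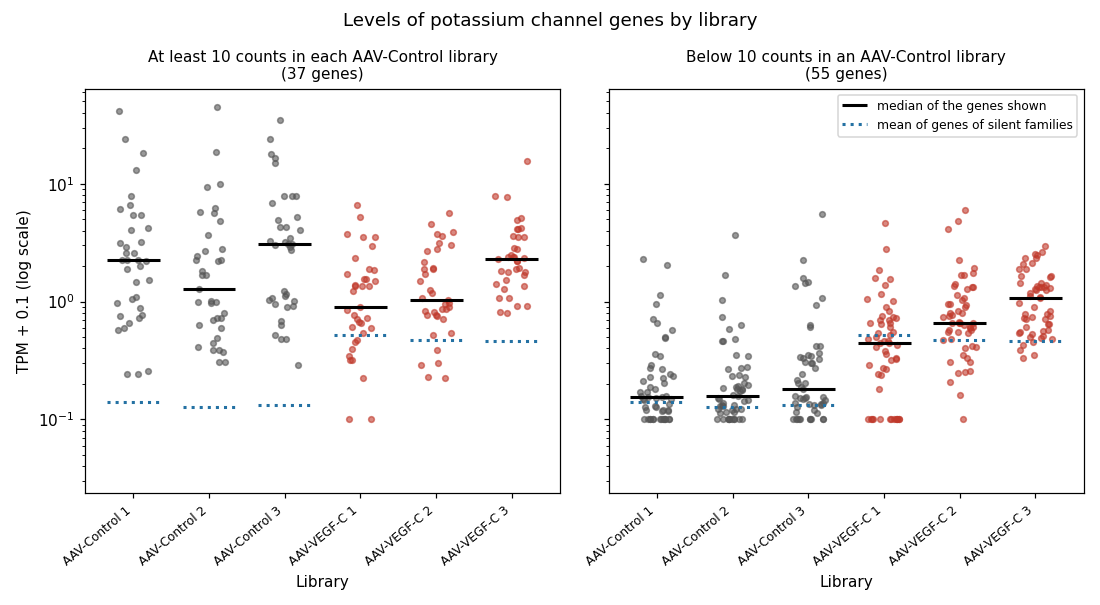
Level of each potassium channel gene (TPM + 0.1, log scale) in each of the 6 libraries, for the 37 genes of the 10-count class (left) and the 55 others (right). Black bars are medians of the genes shown and dotted blue lines the mean of the 1615 genes of silent families. These lines lie near the right-hand medians in AAV-Control 1 (0.0394 against 0.054 TPM) and AAV-VEGF-C 1 (0.421 against 0.345 TPM). That sets a mean against a median, and the silent-family median was 0 TPM in both libraries.

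Levels of the genes outside the class overlapped those of the silent families, but their means were higher. The means of the 55 genes were 0.204, 0.211 and 0.365 TPM in AAV-Control, against 0.0394, 0.0267 and 0.0335 in the silent families. In AAV-VEGF-C 1, 2 and 3 they were 0.531, 0.915 and 1.06 against 0.421, 0.371 and 0.360 TPM. In AAV-VEGF-C 1, 2 and 3, 22, 41 and 50 of the 55 genes lay above the mean of the silent families, and 3, 9 and 25 lay above their 95th percentile (1.53, 1.29 and 1.02 TPM). In the AAV-Control libraries 14, 17 and 22 of the 55 lay above that percentile (0.168, 0.115 and 0.168 TPM). Of the 37 genes of the 10-count class, 34 to 37 lay above it in AAV-Control and 10, 15 and 31 in AAV-VEGF-C 1, 2 and 3. How much of a low channel gene's count came from the same source as the counts of silent families was not tested per gene.

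With all libraries thinned at random to 564430 counts each, 14, 13 and 17 of the 55 genes outside the class kept a count in AAV-Control and 42, 47 and 52 in AAV-VEGF-C. The 10-count class kept 36, 34 and 34 of 37 genes and 35, 37 and 35. Among the 1615 genes of silent families the numbers were 105, 66 and 67 against 645, 721 and 742. Detection of the low channel genes and of the silent families was thus higher in AAV-VEGF-C at equal depth, while that of the 10-count class overlapped.

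The order of the genes was kept to differing degrees. Across the 37 genes of the 10-count class, Spearman's rho between the level in a library and the AAV-Control mean was 0.49, 0.73 and 0.82 in AAV-VEGF-C 1, 2 and 3, an order that is also that of their depth. Across the 55 others it was 0.24, 0.54 and 0.52. Counts of the 55 genes had a rho with exonic length of 0.20, 0.016 and 0.10 in AAV-Control and 0.48, 0.50 and 0.36 in AAV-VEGF-C. Longer genes outside the class thus had more counts in AAV-VEGF-C, whereas length bore little relation to counts in AAV-Control. The 10-count class shifted in the same direction, with a rho of 0.026, -0.028 and 0.18 in AAV-Control and 0.32, 0.22 and 0.32 in AAV-VEGF-C. These are descriptions across genes, which share libraries and are not independent replicates. The median exonic length was 4845 bases (1270 to 16976) in the class and 3976 bases (1566 to 16273) outside it.

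The genes nearest the limit show how narrow it is. Just inside, with 10 counts in their lowest AAV-Control library, were Kcna6 (10, 16 and 37 counts) and Kcnq5 (10, 11 and 19). Just outside, with 9, were Kcnc1 (33, 9 and 31), Kcng4 (29, 9 and 27), Kcnj14 (34, 9 and 66) and Kcnq1 (9, 33 and 147). All 4 of the latter had more AAV-Control counts in sum than either of the former.

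The effect of VEGF-C on single channel genes was tested across all genes with edgeR's quasi-likelihood test, with Benjamini-Hochberg adjustment over the 17459 genes that passed its filter. Of the 92 channel genes 67 were tested. At an adjusted p under 0.05, 23 rose, 1 fell and 43 did not pass. Over all tested genes 10.5% rose and 0.659% fell, against 34.3% and 1.49% of the channel genes tested. In the 10-count class all 37 were tested, 2 rose (Kcna2 and Kcnq5) and 1 fell (Kcne4). That is 5.41% and 2.70%, against 1.73% and 0.845% of the 13605 genes tested that meet the same limit, where 1 gene of the 37 is 2.70%. Kcnq5, counted in the 5.41%, reached the filter's 2.04 CPM in 0 AAV-Control and 3 AAV-VEGF-C libraries. It passed only through the group where it is high, and its call supports nothing by itself. The median log2 fold change of the class was 0.31, with 24 positive and 13 negative values, and that of the 13605 genes was -0.23.

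Outside the class 21 of the 30 tested genes rose and 0 fell. Of the 30, 21 reached the filter's 2.04 CPM in all 3 AAV-VEGF-C libraries and in 0 AAV-Control libraries, so they passed only through the group where they are high, and the number that rose supports nothing by itself. The other 9 reached it in 1 or 2 AAV-Control libraries, and 1 of them rose. Of the 3854 tested genes of the whole table under the same limit 41.5% rose and 0.0% fell. The remaining 25 genes outside the class were not tested.

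**Figure D2:**
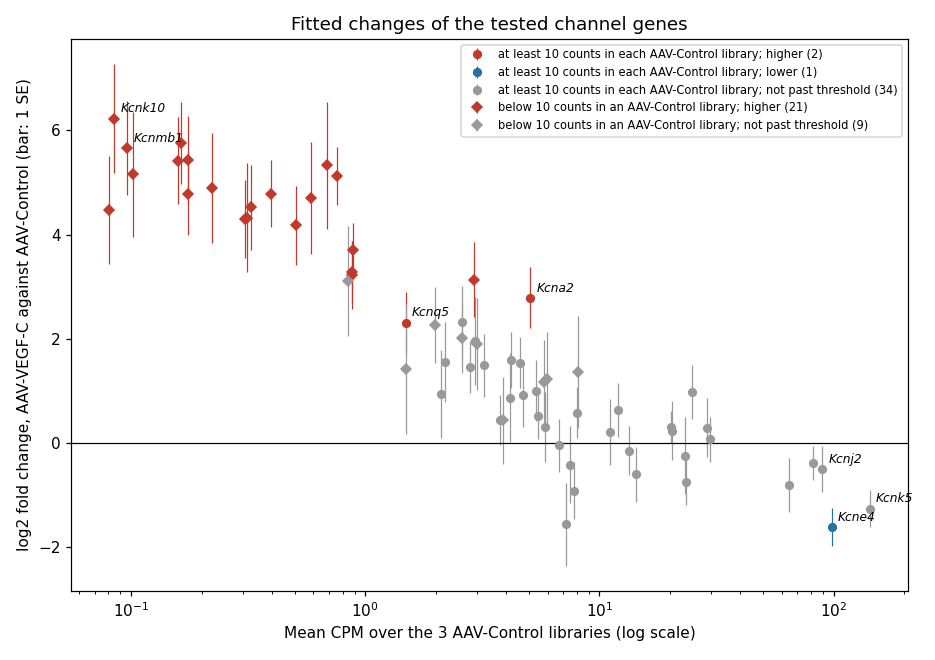
Fitted log2 fold change of AAV-VEGF-C against AAV-Control (bars, 1 SE) of the 67 tested channel genes, by mean CPM over the 3 AAV-Control libraries (log scale). Circles are the 10-count class and diamonds the other genes. The highest value is 6.23 for Kcnk10 near the left and the lowest -1.62 for Kcne4, with -1.26 for Kcnk5 at the right. Both axes use the same AAV-Control counts.

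The tool and the filter changed how many genes were called. With no filter all 92 channel genes were tested, and 47 rose and 2 fell, where 21.1% and 2.64% of 44563 genes did so. DESeq2, which the study used, gave 42 and 2, where 12.5% and 1.08% of the genes did so. Most of these rises were of genes outside the 10-count class. With no filter 3 genes of the class and 44 outside it rose, and by DESeq2 3 and 39. The share of all genes below the 10-count limit that rose was not taken for these fits. With the experiment number as a block, 25 rose and 2 fell, where 12.8% and 2.07% of the 17459 genes did so.

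Which library was left out changed the number of calls. Without AAV-Control 1, 26 of 77 tested channel genes rose, where 1771 of all 18198 tested genes did so. Without AAV-VEGF-C 1, 23 of 81 did, where 1233 of 20106 genes did so. Without AAV-Control 2, without AAV-Control 3 or without AAV-VEGF-C 2, 0 channel genes were called by edgeR, while 37, 40 and 40 had an unadjusted p under 0.05. In the same fits 0, 0 and 8 genes of the whole table rose. Without AAV-VEGF-C 3, 4 of 70 channel genes rose, where 320 of 18549 genes did so. With silent-family background subtracted, 47 channel genes could be tested, 9 had an unadjusted p under 0.05 and 0 were called, and of all 15250 genes tested 0.0721% rose.

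Two-pore subunits, which carry background current, included the most abundant channel gene of the AAV-Control libraries. Kcnk5, a background channel opened by alkaline pH (chr14:20140057-20181809, minus strand), had 41.1, 44.7 and 23.9 TPM in AAV-Control and 6.56, 4.47 and 15.5 TPM in AAV-VEGF-C. Its levels did not overlap, and the lowest AAV-Control library was above the highest AAV-VEGF-C library. Group means were 36.5 ± 11.1 and 8.84 ± 5.85 TPM (SD, n = 3). The edgeR log2 fold change was -1.26 (SE 0.36) with an adjusted p of 0.0639, which misses the threshold. With the experiment number as a block it passed (-1.20, adjusted p 0.0479), and over the alternatives in which Kcnk5 was fitted with all libraries the adjusted p lay between 0.00738 (unfiltered) and 0.434 (thinned to equal depth).

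The other two-pore genes of the class had no call. Kcnk2, a channel gated by stretch and lipids that is known in blood vessels, had 2.47, 2.17 and 7.80 TPM in AAV-Control and 1.25, 0.878 and 4.06 TPM in AAV-VEGF-C. Kcnk6 had 2.15, 9.22 and 4.81 TPM against 0.439, 5.54 and 3.43 TPM. Both pairs of groups overlapped, and in each the experiment with the high AAV-Control value also had the high AAV-VEGF-C value. Their edgeR log2 fold changes were -0.60 (SE 0.52, adjusted p 0.493) and -0.25 (SE 0.74, adjusted p 0.870). Kcnk6 varied with the experiment, and its fold change turned positive without AAV-Control 2 (0.56). All 4 two-pore genes of the class had a negative fold change.

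Inward rectifiers hold the resting voltage. Kcnj2, the strong inward rectifier of endothelium, had 13.0, 9.86 and 16.5 TPM in AAV-Control and 5.10, 2.94 and 4.99 TPM in AAV-VEGF-C. The groups did not overlap in TPM and overlapped in CPM, where AAV-VEGF-C 1 (83.3) lay above AAV-Control 2 (70.4) and the other AAV-VEGF-C libraries (33.4 and 48.1) lay below it. The edgeR log2 fold change was -0.50 (SE 0.45, adjusted p 0.511).

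Kcnj8, a pore subunit of ATP-sensitive channels, had 7.81, 6.07 and 5.16 TPM in AAV-Control and 1.26, 1.81 and 2.76 TPM in AAV-VEGF-C. These groups did not overlap on either scale, but the edgeR change of -0.75 (SE 0.44) had an adjusted p of 0.305. Kcnj15 overlapped on both scales, with 3.06, 2.69 and 7.82 TPM against 3.40, 1.80 and 3.49 TPM (log2 fold change 0.98, SE 0.52, edgeR adjusted p 0.257). In CPM its AAV-VEGF-C 1 value of 72.6 stood above the other 5, which ran from 20.7 to 31.0, and without that library the log2 fold change was 0.13 (adjusted p 0.777 by edgeR). Of the 4 inward rectifiers in the class, 0 were called by edgeR and 0 had an unadjusted p under 0.05.

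Calcium- or sodium-activated subunits couple ion entry to the voltage. Kcnma1, the large-conductance calcium-activated pore, had 5.32, 2.12 and 7.78 TPM in AAV-Control and 1.81, 3.80 and 4.02 TPM in AAV-VEGF-C. Kcnn3, a small-conductance pore that takes part in endothelial hyperpolarization, had 6.54, 2.17 and 3.98 TPM against 2.87, 2.70 and 2.30 TPM. In both the groups overlapped, and the AAV-Control values spread more widely than the AAV-VEGF-C values. Their edgeR log2 fold changes were 0.07 (SE 0.43, adjusted p 0.947) and 0.30 (SE 0.57, adjusted p 0.783), and both changed sign under some scalings or tests. All 5 members of the class had no call, and 1 of them, Kcnn1, had an unadjusted p under 0.05.

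The class held 15 voltage-gated pores. Kcna2, a voltage-gated pore known from axons, was 1 of the 2 genes of the class that rose, and is named here after its values were seen. It lies at chr3:107101146-107115005 on the plus strand. It had 19, 32 and 102 counts in AAV-Control and 28, 29 and 68 in AAV-VEGF-C, which are 2.91, 4.07 and 8.23 CPM against 49.6, 20.2 and 20.8 CPM. In CPM every AAV-VEGF-C library was above every AAV-Control library, whereas in TPM (0.156, 0.349 and 0.824 against 1.39, 0.727 and 1.18) the groups overlapped. The edgeR log2 fold change was 2.79 (SE 0.59, adjusted p 0.0264). Without AAV-VEGF-C 1 it was 2.01 (adjusted p 0.0502), and the adjusted p lay above 0.05 in each of the 6 fits that left out a library (up to 0.0867). With all libraries its values lay between 6.31e-05 (unfiltered) and 0.185, the latter after subtraction of silent-family background.

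Kcnq5, a slowly activating voltage-gated pore, had 10, 11 and 19 counts in AAV-Control and 3, 5 and 36 in AAV-VEGF-C. In CPM these are 1.53, 1.40 and 1.53 against 5.31, 3.48 and 11.04, with no overlap. In TPM (0.144, 0.291 and 0.190 against 1.14, 0.202 and 1.71) the groups overlapped. The edgeR log2 fold change was 2.31 (SE 0.59, adjusted p 0.0440). The call was lost with the experiment number as a block (adjusted p 0.0829) and without any 1 library, and without AAV-VEGF-C 3 the change was 1.66 (adjusted p 0.236). Kcna6, at the limit, had 10, 16 and 37 counts against 0, 7 and 36 and no call (1.56, SE 0.77, edgeR adjusted p 0.233). Of the 15 genes 13 had a positive fold change, and 5 had an unadjusted p under 0.05.

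The modifier subunits of the class were 3 genes, and 0 of them were called by edgeR, with 1 at an unadjusted p under 0.05. Kcns1, which alters delayed rectifiers, had 18.0, 5.65 and 17.7 TPM in AAV-Control and 1.28, 3.62 and 7.60 TPM in AAV-VEGF-C. The groups overlapped, since AAV-Control 2 lay below AAV-VEGF-C 3 (log2 fold change -0.81, SE 0.51, edgeR adjusted p 0.343).

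Auxiliary subunits held the only channel gene that fell. Kcne4, a single-pass subunit that damps certain voltage-gated channels (chr1:78816758-78820028, plus strand), had 23.9, 18.4 and 34.4 TPM in AAV-Control. In AAV-VEGF-C it had 2.27, 2.61 and 7.83 TPM. Group means were 25.6 ± 8.13 and 4.23 ± 3.12 TPM (SD, n = 3), with no overlap in TPM or CPM. It fell by 1.62 on the log2 scale (SE 0.37, edgeR adjusted p 0.0319). Each of the 6 fits that left out a library had an unadjusted p under 0.05, but none kept the call, and their adjusted p ran from 0.0574 to 0.0773. With all libraries its values lay between 0.000787 (unfiltered) and 0.304 (a minimum mean of 5 TPM). The overlapping gene on the other strand, Gm29536, had at most 2 counts in a library.

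Kcnip3, a calcium-binding subunit, stayed within a narrow range in CPM. Its values were 21.3, 18.8 and 20.6 CPM in AAV-Control and 23.0, 19.5 and 25.1 CPM in AAV-VEGF-C, and the groups overlapped (log2 fold change 0.31, SE 0.30, edgeR adjusted p 0.550). In TPM it had 5.28, 4.77 and 6.80 against 1.76, 3.52 and 4.81. The direction of Kcnip3 thus depends on the scale, and limma on log2(TPM + 1) gave a log2 change of -0.65.

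**Figure D3:**
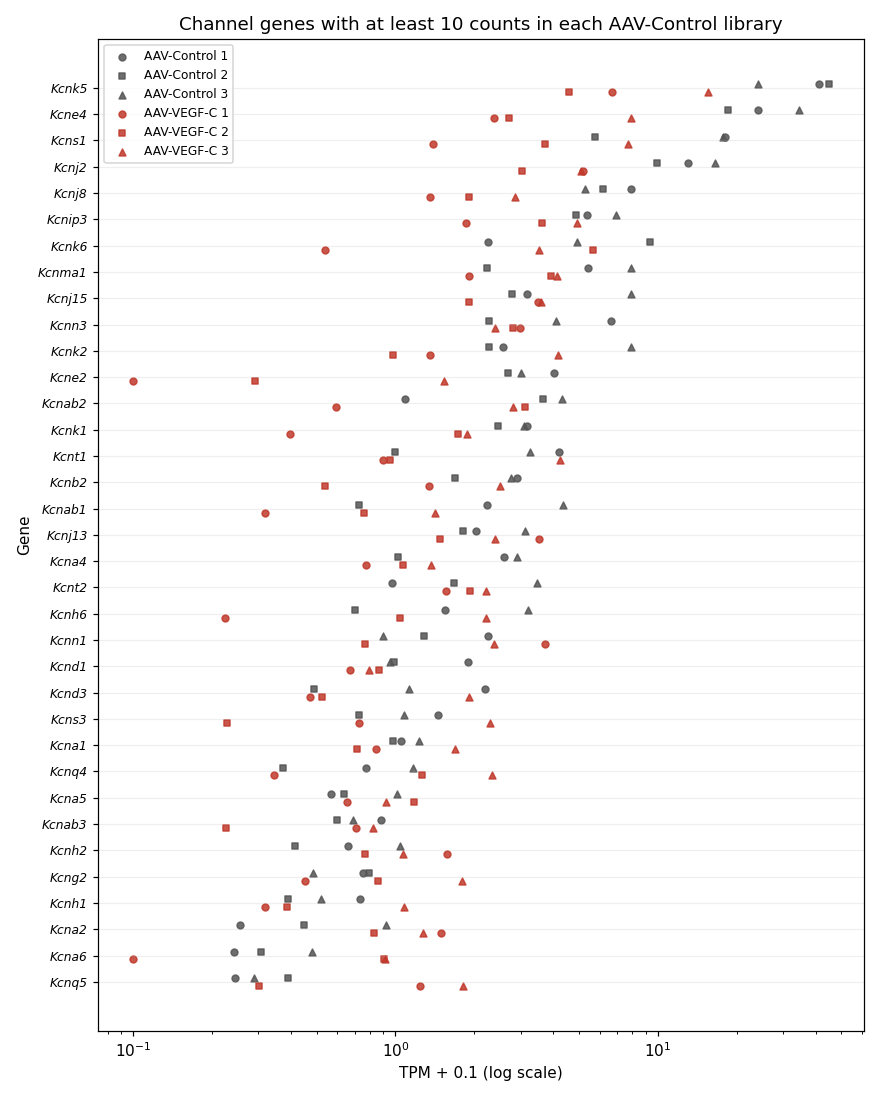
Level (TPM + 0.1, log scale) of 35 of the 37 genes of the 10-count class in the 3 AAV-Control libraries (grey) and the 3 AAV-VEGF-C libraries (red), ordered by the AAV-Control mean. The AAV-Control values of Kcnk5 (23.9 to 44.7 TPM) and Kcne4 (18.4 to 34.4 TPM) stand above all AAV-VEGF-C values of the same gene, while the genes at the foot of the plot have higher values in some AAV-VEGF-C libraries.

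Over the class as a whole the scales gave different counts of genes without overlap. In CPM 7 genes were higher and 5 lower in every AAV-VEGF-C library, where 7.5% and 24.5% of the 13605 genes under the same limit did so. In TPM 0 were higher and 8 lower, where 1.94% and 46.7% did so. The share of the class that lay lower without overlap was below that of all such genes on both scales.

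Marker genes of other cells were detected as well. The 10 fibroblast markers summed to 1890 to 4487 TPM in AAV-Control and 419 to 1428 TPM in AAV-VEGF-C, and 2 of the 9 tested fell. The 10 smooth muscle and pericyte markers, cells in which Kcnj8 and Kcnmb1 are known, summed to 93.2 to 281 TPM and 14.8 to 89.3 TPM, and 0 of 10 were called by edgeR (1 at an unadjusted p under 0.05). Leukocyte markers ran from 26.4 to 2212 TPM in AAV-Control and from 15.2 to 1029 TPM in AAV-VEGF-C, lowest in experiment 1 of each group, where Kcnk6 (2.15 and 0.439 TPM) and Kcnk13 were also lowest, and 0 of 9 were called by edgeR. Blood endothelial markers summed to 109 to 881 TPM and 56.3 to 121 TPM, with 0 of 10 called, and neither list had a marker at an unadjusted p under 0.05. Schwann cell and glial markers summed to 32.0 to 66.5 TPM and 10.1 to 34.0 TPM, and 1 of 10 rose and 1 fell. The part of these cells in the channel levels was not tested.

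Outside the 10-count class the voltage-gated pores were the largest family, with 15 genes of which 10 were tested and 8 rose. Beside this and the family counts below stand the 41.5% of all tested genes under the same limit that rose, and most of the genes counted passed the filter through their AAV-VEGF-C counts. Relatives of the neuronal ether-a-go-go family were at single counts in AAV-Control. Kcnh4 had 1, 2 and 1 counts in AAV-Control and 7, 9 and 25 in AAV-VEGF-C, a ratio of pooled CPM of 52.2 (95% exact interval 18.9 to 201, counting error only; edgeR adjusted p 0.0193). Kcnh5 had 2, 0 and 0 counts against 3, 3 and 11, a ratio of 43.3 (10.3 to 386; edgeR adjusted p 0.0337). Kcnh7 had 9, 4 and 2.01 counts against 30, 18 and 18, a ratio of 22.4 (12.7 to 42.3; edgeR adjusted p 0.0318). In TPM the AAV-VEGF-C values of Kcnh4 were 0.596, 0.552 and 0.733, those of Kcnh5 0.325, 0.205 and 0.389 and those of Kcnh7 1.47, 0.831 and 0.469. Those of Kcnh5 were below the silent-family mean in AAV-VEGF-C 1 and 2. The fitted change of Kcnh7 was 5.33, but 3.70 without AAV-VEGF-C 1 (adjusted p 0.0683), and 6.30 without AAV-Control 1 and 4.54 without AAV-Control 3. That of Kcnh5 was 5.15, but 7.29 without AAV-Control 1 and 4.20 without AAV-Control 3, and that of Kcnh4 was 5.76 and 5.11 without AAV-Control 3. Such fitted values of nearly empty genes depend on the prior count of the fit. Kcnh4, Kcnh5 and Kcnh7, and below Kcnv2, Kcnj6, Kcnk10 and Kcnmb1, reached the filter's CPM in AAV-VEGF-C libraries alone. They were also named for the size of their rise, so their ratios and adjusted p describe them and support nothing by themselves. The exact intervals pool the libraries of a group and leave out the spread between them.

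Kcnc1, a fast delayed rectifier just under the limit, had 33, 9 and 31 counts against 20, 17 and 71, and 0.387, 0.082 and 0.229 TPM against 0.919, 0.654 and 1.17 TPM. It rose without overlap on both scales (log2 fold change 3.13, SE 0.72, edgeR adjusted p 0.0320), with 3.81 without AAV-Control 1 and 2.52 without AAV-VEGF-C 1 (adjusted p 0.0648). Kcnq1, the pore of a cardiac and epithelial channel, had the highest AAV-VEGF-C level outside the class in TPM, at 4.50, 5.87 and 2.38 against 2.20, 1.58 and 5.46, and the groups overlapped (1.17, SE 0.80, edgeR adjusted p 0.382). The Kcnq1 locus holds the antisense transcript Kcnq1ot1, with 764 to 3138 counts in AAV-Control and 103 to 518 in AAV-VEGF-C, and 8 small genes on the same strand, so the counts of Kcnq1 are uncertain.

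Among modifier subunits outside the class, 7 genes, 4 were tested and 3 rose. Kcnv2, a modifier best known from the retina, had 1, 1 and 3 counts in AAV-Control and 8, 7 and 16 in AAV-VEGF-C, a pooled CPM ratio of 31.6 (95% exact interval 12.2 to 104; edgeR adjusted p 0.0193). Its fitted change of 5.42 was 4.62 without AAV-VEGF-C 1. Kcng4 had 29, 9 and 27 counts against 6, 8 and 41 and no call (log2 fold change 2.01, SE 0.67, edgeR adjusted p 0.101), but passed with the block (2.22, adjusted p 0.0443).

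Of the 11 inward rectifiers outside the class, 7 were tested and 5 rose. Kcnj6, a pore opened by G proteins in neurons, had 1, 0 and 4 counts in AAV-Control and 3, 13 and 24 in AAV-VEGF-C, or 0.514, 1.26 and 1.34 TPM in the latter. The ratio of pooled CPM was 40.7 (95% exact interval 16.1 to 132; edgeR adjusted p 0.0193), and the fitted change of 5.42 was 6.12 without AAV-Control 3. Kcnj14, with 34, 9 and 66 counts against 1, 1.64 and 32, overlapped between groups (0.43, SE 0.84, edgeR adjusted p 0.784), and its fold change turned to -1.19 without AAV-VEGF-C 3. Its count in that library was far above those in the other 2 AAV-VEGF-C libraries.

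Two-pore subunits outside the class were 10 genes, of which 5 were tested and 2 rose. Kcnk10, a stretch- and lipid-gated relative of Kcnk2, had 0, 2 and 0 counts in AAV-Control and 4.21, 10 and 21 in AAV-VEGF-C, or 1.05, 1.65 and 1.24 TPM in the latter. With 2 counts in all AAV-Control libraries the pooled CPM ratio was 89.1 with a 95% exact interval of 22.9 to 765 (edgeR adjusted p 0.0193). Its fitted change was 6.23, 8.21 without AAV-Control 2 and 5.30 without AAV-Control 3. A transcript on the same strand, 5330409N07Rik, overlaps Kcnk10, which makes its counts uncertain.

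Kcnk13 and Kcnk4 had the next highest AAV-VEGF-C levels outside the class. Kcnk13, a background channel known from microglia, had 0.054, 3.56 and 1.35 TPM in AAV-Control and 0.377, 4.02 and 2.26 TPM in AAV-VEGF-C, low in experiment 1 of both groups, with overlap (1.36, SE 1.08, edgeR adjusted p 0.452). Leaving out a library gave 0.52 (AAV-VEGF-C 2) to 2.87 (AAV-Control 2), with 0 calls by edgeR and 1 fit at an unadjusted p under 0.05. Kcnk4, a mechanically gated channel of neurons, had 5, 7 and 8.45 counts against 1, 11 and 20.7 and was not tested, since 2 libraries passed the filter's level. Its pooled CPM ratio was 8.40 (95% exact interval 4.68 to 15.4, counting error only), and Catsperz overlaps it on the same strand. Kcnk16 had 0 counts in every AAV-Control library and 2, 0 and 11 in AAV-VEGF-C.

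Calcium-activated subunits outside the class were 3 genes, and the 1 tested was Kcnn4. This intermediate-conductance pore, known in endothelium and lymphocytes, had 2, 10 and 13 counts in AAV-Control and 4, 8 and 32 in AAV-VEGF-C. Per length these are 0.080, 0.365 and 0.321 TPM against 0.638, 0.694 and 2.25 TPM, with no overlap. It rose by 3.22 on the log2 scale (SE 0.65, edgeR adjusted p 0.0243), and leaving out a library gave 2.83 to 3.55, with a call in 1 of 6 fits. Kcnn4 reached the filter's 2.04 CPM in 0 AAV-Control and 3 AAV-VEGF-C libraries. It passed only through the group where it is high, so its call supports nothing by itself.

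Auxiliary subunits outside the class were 9 genes, of which 3 were tested and 2 rose. Kcnmb1, the smooth muscle subunit that raises the calcium sensitivity of the Kcnma1 pore (chr11:33963013-33973641, plus strand), had 0, 1 and 2 counts in AAV-Control and 5, 8 and 12 in AAV-VEGF-C. The ratio of pooled CPM was 42.4 (95% exact interval 12.9 to 220; edgeR adjusted p 0.0193). Its AAV-VEGF-C levels were 0.556, 0.563 and 0.438 TPM. They lay above the silent-family means of 0.421, 0.371 and 0.360 TPM but below the silent-family 95th percentiles of 1.53, 1.29 and 1.02 TPM. With silent-family background subtracted Kcnmb1 could not be tested. The locus lies inside Kcnip1 on the opposite strand, which had 13, 3 and 2 counts against 6, 6 and 19, so the counts of Kcnmb1 are uncertain. Kcnip1 had no call (adjusted p 0.104 by edgeR) and passed with the block (adjusted p 0.0256). It reached the filter's CPM in AAV-VEGF-C libraries alone, so that pass supports nothing by itself. The study named Kcnmb1 from these same libraries, so its values here are no independent evidence. The pore it belongs with, Kcnma1, had no call.

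**Figure D4:**
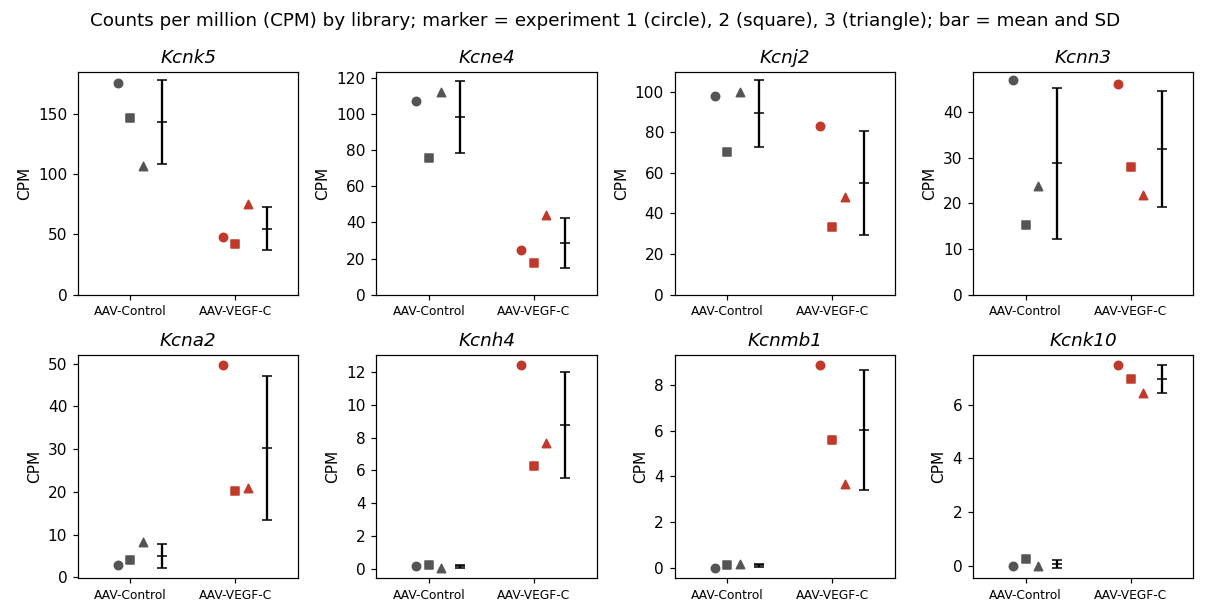
Level in CPM of 8 channel genes in each library, with the mean and SD of each group (n = 3) beside the points and the marker shape giving the experiment. Kcnk5 and Kcne4 are lower and Kcna2, Kcnh4, Kcnmb1 and Kcnk10 higher in all AAV-VEGF-C libraries, Kcnj2 and Kcnn3 overlap, and the AAV-Control values of the last 3 genes lie below 1 CPM.

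Over the 55 genes outside the class, 36 were higher in every AAV-VEGF-C library in CPM and 30 in TPM, and 0 were lower, while 19 and 25 overlapped. Among the 30 tested, the counts were 25 (83.3%) and 21 of 30, a set that mostly passed through its AAV-VEGF-C counts. Of the 3854 tested genes of the whole table under the same limit 66.9% were higher without overlap in CPM and 51.2% in TPM, and 0.0% and 0.0519% were lower. Neuron markers moved in the same direction as a sum in CPM, with 31.9 to 132 in AAV-Control and 133 to 167 in AAV-VEGF-C. Of the 11 tested 5 rose (45.5%, against 10.5% of all tested genes). These (Gad1, Rbfox3, Stmn2, Tubb3 and Nefm) each had under 10 counts in an AAV-Control library, and of all tested genes under that limit 41.5% rose. The most abundant neuron markers in AAV-Control, Syp, Snap25 and Map2, did not rise (log2 fold changes -0.53, -0.20 and -0.016). In TPM their sums overlapped (8.71 to 44.0 against 19.0 to 28.5). Skeletal muscle markers summed to 2.75 to 4.43 TPM and 6.49 to 20.6 TPM, and 3 of the 5 tested rose, against the same 10.5%. Of those that rose, Acta1 and Ryr1 had under 10 counts in an AAV-Control library, where the share of all tested genes was 41.5%. Ttn, which also rose, had 46, 115 and 231 counts in AAV-Control. None of the markers on these 2 lists was at 0 in all libraries of a group. Their part, and that of the silent-family background, in the channel genes that rose was not tested.

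Promoters of both classes were also read. RefSeq promoters (GRCm38.p6, 250 bases before to 50 after the start) were found for 67 of the 92 genes. Those shown are of Kcnk5, the gene with the highest AAV-Control level, and Kcnh4, 1 of the lowest, 5′ to 3′ on the gene's minus strand with CG dinucleotides in capitals.
Kcnk5, chr14:20181733-20182032: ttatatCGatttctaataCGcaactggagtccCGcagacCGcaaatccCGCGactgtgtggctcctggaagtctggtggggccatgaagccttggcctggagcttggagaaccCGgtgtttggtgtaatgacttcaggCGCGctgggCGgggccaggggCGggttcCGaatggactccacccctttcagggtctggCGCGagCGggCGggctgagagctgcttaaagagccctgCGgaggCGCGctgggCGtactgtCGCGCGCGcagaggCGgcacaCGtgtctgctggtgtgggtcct
Kcnh4, chr11:100759729-100760028: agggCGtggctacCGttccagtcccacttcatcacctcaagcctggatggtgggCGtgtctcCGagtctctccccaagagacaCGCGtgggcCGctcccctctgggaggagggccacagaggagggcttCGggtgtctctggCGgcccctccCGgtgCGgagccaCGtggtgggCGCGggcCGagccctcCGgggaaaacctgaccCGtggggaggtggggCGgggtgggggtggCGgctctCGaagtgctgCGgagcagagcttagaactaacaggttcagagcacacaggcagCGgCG
They hold 26 and 23 CG dinucleotides, and 16.87% and 21.52% of all 32851 promoters of this length hold as many. The median number was 11 in 27 promoters of the 10-count class, 9 in 40 promoters outside it and 7 in all. The letters TATAAA occurred on either strand in 2 of the 27 promoters (7.41%), 1 of the 40 (2.50%) and 13.62% of all. Both promoters shown hold more CG dinucleotides than the median promoter of either class.

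Other genes of potassium handling were taken from a list of 32: sodium pump subunits, cotransporters, HCN channels and partners of channels. Of these 28 were tested, 4 rose (14.3%) and 0 fell, where 10.5% and 0.659% of all tested genes did so, and 5 of the rest had a negative change at an unadjusted p under 0.05. The list summed to 855, 759 and 1120 TPM in AAV-Control and 158, 252 and 422 TPM in AAV-VEGF-C, without overlap, and 12 of the 28 tested genes were lower (42.9%) and 4 higher (14.3%) without overlap in TPM, where 36.4% and 12.8% of all tested genes were. Of the sodium pump, the regulator Fxyd5 had 356, 286 and 490 TPM against 58.1, 82.7 and 161 TPM (log2 fold change -0.81, SE 0.28, edgeR adjusted p 0.110). Atp1b1, a beta subunit, had 185, 150 and 107 TPM against 35.5, 24.4 and 73.0 TPM (-0.83, SE 0.43, edgeR adjusted p 0.252). Both were lower in TPM in every AAV-VEGF-C library and did not pass the test.

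The 4 that rose were again of low level in AAV-Control. Dpp10, a partner of transient voltage-gated channels, had 0.060, 0.078 and 0.014 TPM against 4.89, 0.568 and 0.843 TPM (edgeR adjusted p 0.0214). Abcc8, the sulfonylurea receptor of ATP-sensitive channels, had 0.385, 0.299 and 0.034 TPM against 0.284, 1.59 and 2.46 TPM (edgeR adjusted p 0.0385), with overlap in TPM. The pacemaker channel Hcn4 had 0.152 to 0.292 TPM in AAV-Control and 0.296 to 1.58 TPM in AAV-VEGF-C (edgeR adjusted p 0.0329). With the block 3 of the list rose and 2 fell, and without AAV-Control 2, AAV-Control 3, AAV-VEGF-C 2 or AAV-VEGF-C 3, 0 rose.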

How the data were processed

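Total RNA of the sorted cells was made into stranded libraries for low input, with molecular identifiers, and read as 100-base pairs. The authors deposited 1 table of estimated counts, left unscaled, and 1 of TPM, a level corrected for gene length and library total. The submitters' processing notes name FastQC, Trimmomatic, DRAGEN, Picard and the build mm10, without roles or versions, and the counting program and its use of strand or molecular identifiers are not given in the sources used here. GENCODE M21 holds 98.1% of the identifiers when the version is kept and 99.5% when it is dropped. Therefore positions, lengths and transcripts came from that annotation.

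Counts were rounded, genes were kept by filterByExpr of edgeR (4.0.16, R 4.3.3), libraries were scaled by TMM, and the groups were compared by its quasi-likelihood test at an adjusted p (Benjamini-Hochberg) of 0.05. DESeq2 (1.42.0), which the study used, and limma (3.58.1) on log2(TPM + 1), log2(TPM + 0.1) and voom values were alternatives, beside other scalings and filters, the replicate block, drawn-down counts, subtraction of silent-family background and leaving out each library. CPM is the count scaled to the library total. Exact intervals (95%) and the limit of 3 counts cover counting error only. The fit was checked on simulated data, with changes placed only in genes above a minimum mean CPM and no background that differed between the groups. That check therefore does not cover calls of genes nearly empty in AAV-Control.

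Experiment numbers are shared by the groups and mark repeats of the experiment. After removing the group mean of each of 17459 genes, libraries of the same number correlated at 0.37, 0.28 and 0.15. Between different numbers the correlation was at most 0.22, for AAV-Control 3 with AAV-VEGF-C 2. That is above the 0.15 of AAV-Control 3 with AAV-VEGF-C 3. The same-number pairs of the other experiments stood above every different-number pair. By this measure the numbers pair the libraries except in experiment 3. Libraries of a group differed beyond sampling noise (chi-square over its degrees of freedom, 7.70 or more). No deposited column was left without a sample.

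The channel genes, the 10-count limit, the families, the silent families and the other lists were chosen with earlier results of these data known. Genes named are the 10 most abundant of the 10-count class in AAV-Control, the 8 largest rises and the fall past the threshold, the 4 highest in AAV-VEGF-C outside the class (mean TPM), those nearest the limit, and channels known in vessels or named by the study. Some genes that these rules name are not reported here. Kcna2 and other genes named for completing a count were chosen after their values were seen. Promoters missing from the RefSeq table are not shown.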

Additional observations from a re-analysis of the deposited data

How the results depend on the processing

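Against 23 channel genes higher and 1 lower, there were 47 and 2 with no filter, 42 and 2 by DESeq2, 12 and 3 by limma on log2(TPM + 1), 25 and 2 with the replicate block (experiment number), and 22 and 2 when libraries were scaled on the 2000 most abundant genes. Of all 17459 genes, limma on log2(TPM + 1) gave 1112 higher and 434 lower, and the scaling on abundant genes gave 2069 and 49. Fewer channel genes could be tested above a mean of 5 TPM (5), after drawing down (11) and after subtraction of silent-family background (47), and each gave 0 higher and 0 lower by edgeR, with 2, 3 and 9 at an unadjusted p under 0.05. Leaving out a library gave 0 to 26 higher and 0 lower, where 0 to 1771 of all genes were higher and 0 to 48 lower. The replicate block gained 4 channel genes, among them Kcng4, Kcnip1 and Kcnk5, and lost Kcnq5. Kcnip1 and Kcnq5 reached the filter's CPM in AAV-VEGF-C libraries alone. Of the other potassium handling genes, 4 were higher and 0 lower, and with no filter 6 were lower, by DESeq2 3, by limma on log2(TPM + 1) 2 (and 1 higher), on log2(TPM + 0.1) 0 (and 1 higher), with voom 1 and with the block 2 (and 3 higher). Above a mean of 5 TPM, with drawn-down counts or background subtracted 0 were higher (1, 2 and 2 at an unadjusted p under 0.05), and leaving out a library gave 0 to 3 higher.

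The median log2 fold change of the 10-count class, 0.31, was -0.46 above a mean of 5 TPM (5 genes), -0.41 by limma on log2(TPM + 1) and -0.54 on log2(TPM + 0.1). Over all tested genes the median was -0.0037, -0.10 with library size alone and -0.19 scaled on abundant genes, and -0.72 and -1.04 on the TPM scales.

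Some log2 fold changes turned, that of Kcnj15 from 0.98. On log2(TPM + 1) and log2(TPM + 0.1) they became -0.65 and -0.82 for Kcnip3, -0.32 and -0.90 for Kcnj14, -0.42 and -0.52 for Kcnj15, -0.45 and -0.54 for Kcnma1 and -0.44 and -0.54 for Kcnn3. Kcnma1 was also -0.059 with library size alone, -0.17 scaled on abundant genes and -0.17 with no filter. Kcnj2 became 0.027 drawn down. Leaving out a library gave -1.19 to 0.75 for Kcnj14, -0.71 to 0.56 for Kcnk6, -0.33 to 0.29 for Kcnma1 and -0.24 to 0.91 for Kcnn3. The cause was not tested. Of the values of single genes under alternatives, 329 kept direction and side of the threshold, 74 lost the call, 9 gained it and 24 turned. Depth limits the low genes most in AAV-VEGF-C 1.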
